A study of Homo sapiens with 12 samples.

Results

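The 40 genes described here encode the enzymes that build asparagine-linked glycans (N-glycans) in the endoplasmic reticulum (ER) and process them there and in the Golgi. They were taken by name, as the genes whose products make the mannose-rich and complex N-glycans to which the lectin concanavalin A (ConA) binds rather than by a threshold on a measured value. All 40 have a row in both tables of normalized counts, among 16101 genes listed in the table for PMA and 15991 in the table for ConA.

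The wild-type HT1080 line, a human fibrosarcoma line, was switched to biotin-depleted medium with 1% serum, and polyA RNA was sequenced in 12 libraries. In the PMA experiment, 3 libraries came from cells exposed for 24 h to 40 nM PMA (phorbol 12-myristate 13-acetate, a plant-derived phorbol ester that activates protein kinase C) and 3 from untreated controls. In the ConA experiment, 3 libraries came from cells exposed for 24 h to 40 µg/mL ConA and 3 from untreated controls numbered 4 to 6, so that the experiments share no library and each treatment was set against its own controls. One cell line was used throughout, and the labels do not say whether the 3 libraries of a group are separate cultures, so p-values measure only the spread between these libraries, which may be technical.

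N-glycans begin as a lipid-linked oligosaccharide, a sugar tree assembled stepwise on dolichol from GlcNAc, mannose and glucose. The oligosaccharyltransferase (OST) moves the finished tree onto nascent proteins, glucosidases and a glucosyltransferase then use the outermost glucoses to monitor folding, and mannosidases trim the mannoses. In the Golgi, GlcNAc-transferases (the MGAT enzymes) start the branches of complex glycans, and fucose, galactose and sialic acid are added. ConA binds the mannoses of high-mannose and little-branched complex glycans, and binds poorly once further branches have been added.

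A normalized count is an estimated read count that the authors divided by 1 factor per library, without division by gene length, so levels of different genes are compared below only per kilobase. About 33648999 to 45588060 reads per library, estimated from the tables, were assigned to genes. The mean squared difference between replicate libraries was 3.53 to 16.4 times the sampling variance, where 1 is sampling noise alone. All 10 mesenchymal marker genes were listed in the PMA table and 9 of 10 in the ConA table (THY1 was not listed), led by VIM and FN1 in the former and by FN1 and SPARC in the latter. Of 11 leukocyte markers, 8 were listed in the PMA table, with summed normalized counts of 657 to 751 in the controls and 807 to 1288 with PMA, while CD14, CD79A and MS4A1 were not listed. Of the same 11 markers, 3 were listed for ConA, with sums of 112 to 143 in the controls and 132 to 201 with ConA, and PTPRC and CD3E were not among them. Of 6 epithelial markers, 3 were listed for PMA (sums of 213 to 253 in the controls and 170 to 216 with PMA) and 5 for ConA (190 to 217 and 195 to 325). The part of these transcripts in the results was not tested. In bulk RNA, fewer cells of a kind and less RNA per cell cannot be told apart.

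Most of the 40 transcripts moved little with PMA, with the largest rise in DPM2 (log2 0.37) and the largest fall in MAN1B1 (-0.53). All 40 passed the filter of a mean of at least 10 normalized counts and were tested with limma on log2(normalized count + 1), so that fold changes of low genes are understated. With PMA, 10 of the 40 (25.0%) were higher at an adjusted p of at most 0.05, beside 32.8% of all 15153 genes tested, 14 (35.0%) were lower, beside 30.5%, and 16 did not pass. The median log2 fold change of the 40 was -0.03, against 0.003 for all genes, and the median absolute log2 fold change was 0.16 against 0.30. None of the 40 reached a log2 fold change of 1 in either direction with an adjusted p of at most 0.0001, beside 8.65% of all genes, although 26 had an unadjusted p of at most 0.05. The 3 treated libraries lay clear of the 3 controls for 28 of the 40 (70.0%), beside 67.9% of all genes. The split between directions depended on the scaling, with 10 higher and 14 lower as deposited but 5 higher and 20 lower after quantile normalization. Of all 15153 genes, 4970 were higher and 4616 lower as deposited, and 4403 higher and 4846 lower after quantile normalization.

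With ConA, a few members fell far more than the rest, led by the branching enzyme MGAT5 and by ALG14, the membrane anchor of an early assembly enzyme. Of the 40 genes, 10 (25.0%) were higher, beside 32.8% of all 15139 genes tested, 13 (32.5%) were lower, beside 32.5%, and 17 did not pass. The median log2 fold change was -0.05, against -0.002 for all genes, and the median absolute value was 0.15 against 0.34. Past a log2 fold change of 1 with an adjusted p of at most 0.0001 lay 2 members (5.00%), ALG14 and MGAT5, both lower, beside 8.71% of all genes. Libraries did not overlap for 26 of the 40 (65.0%), beside 69.3%. After centring each library on its median the split was 6 higher and 17 lower, and after quantile normalization 8 higher and 14 lower. Of all 15139 genes, 4973 were higher and 4918 lower as deposited. After centring these counts were 4330 and 5625, and after quantile normalization 4419 and 5526.

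The comparison with all genes is partly one of level, since 39 of the 40 had a mean of at least 100 normalized counts. Among all genes at that level the median absolute log2 fold change was 0.25 with PMA and 0.31 with ConA, still above the values of the N-glycan genes. An absolute log2 fold change under 0.5 was found for 39 of the 40 with PMA (97.5%, against 68.1% of all genes) and for 32 of the 40 with ConA (80.0%, against 64.7%). Summed, the 40 genes took 0.508% ± 0.00664 (SD, n = 3) of all normalized counts in the PMA controls and 0.452% ± 0.000689 (SD, n = 3) with PMA. In the ConA experiment the share was 0.514% ± 0.00716 (SD, n = 3) in the controls and 0.537% ± 0.00367 (SD, n = 3) with ConA. The summed share is weighted towards the most abundant members, and its denominator moved as well. Total normalized counts stood at 36791432 to 37139546 in the PMA controls and 40081123 to 40289797 with PMA, and at 42480641 to 43210305 in the ConA controls and 40609399 to 41323373 with ConA.

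**Figure D1:**
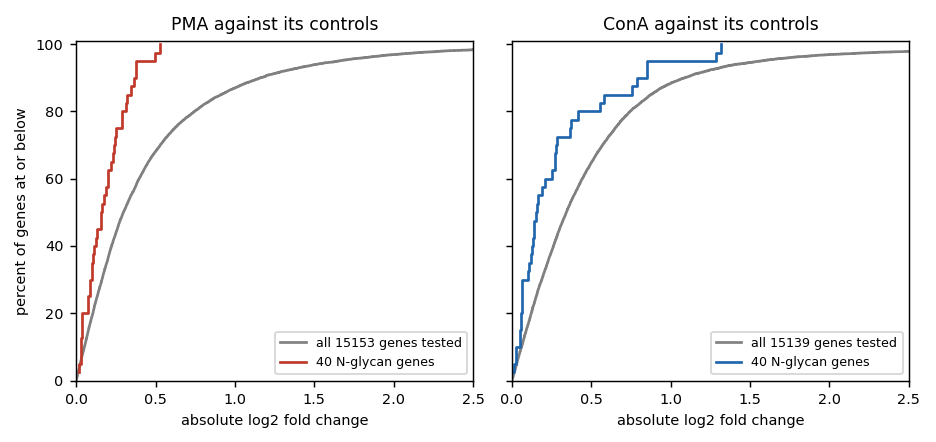
Cumulative percent of genes (vertical axis) at or below each absolute log2 fold change (horizontal axis, drawn to 2.5) for all genes tested (grey) and the 40 N-glycan genes (coloured), with PMA on the left and ConA on the right. With PMA the N-glycan genes end at 0.53, and with ConA at 1.32, where MGAT5 and ALG14 form the tail.

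Taken against each other within one fit of both tables, the response to PMA exceeded the response to ConA for 15 of the 40 (37.5%), beside 30.4% of all 15030 genes tested in both, and fell short of it for 13 (32.5%), beside 30.7%. In this difference MGAT5, ALG14 and DAD1 (7.50%) lay past a log2 value of 1 with an adjusted p of at most 0.0001, beside 10.6% of all genes. The treatments were given in separate experiments, so that a difference between treatments and a difference between experiments cannot be told apart. RPN1 and MGAT1 were higher with both treatments as deposited, although after quantile normalization their log2 values with PMA were -0.136 and -0.065. MPI, DPM3, ALG12, DDOST, MAN1A2 and MAN2A1 were lower with both. DPM2, ALG13 and DAD1 were higher with PMA and lower with ConA, and ALG6, GANAB, MGAT2 and B4GALT1 were lower with PMA and higher with ConA. As deposited, neither comparison passed for ALG5, ALG2, ALG11, ALG9, STT3A, STT3B, MGAT4A and MGAT4B.

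**Figure D2:**
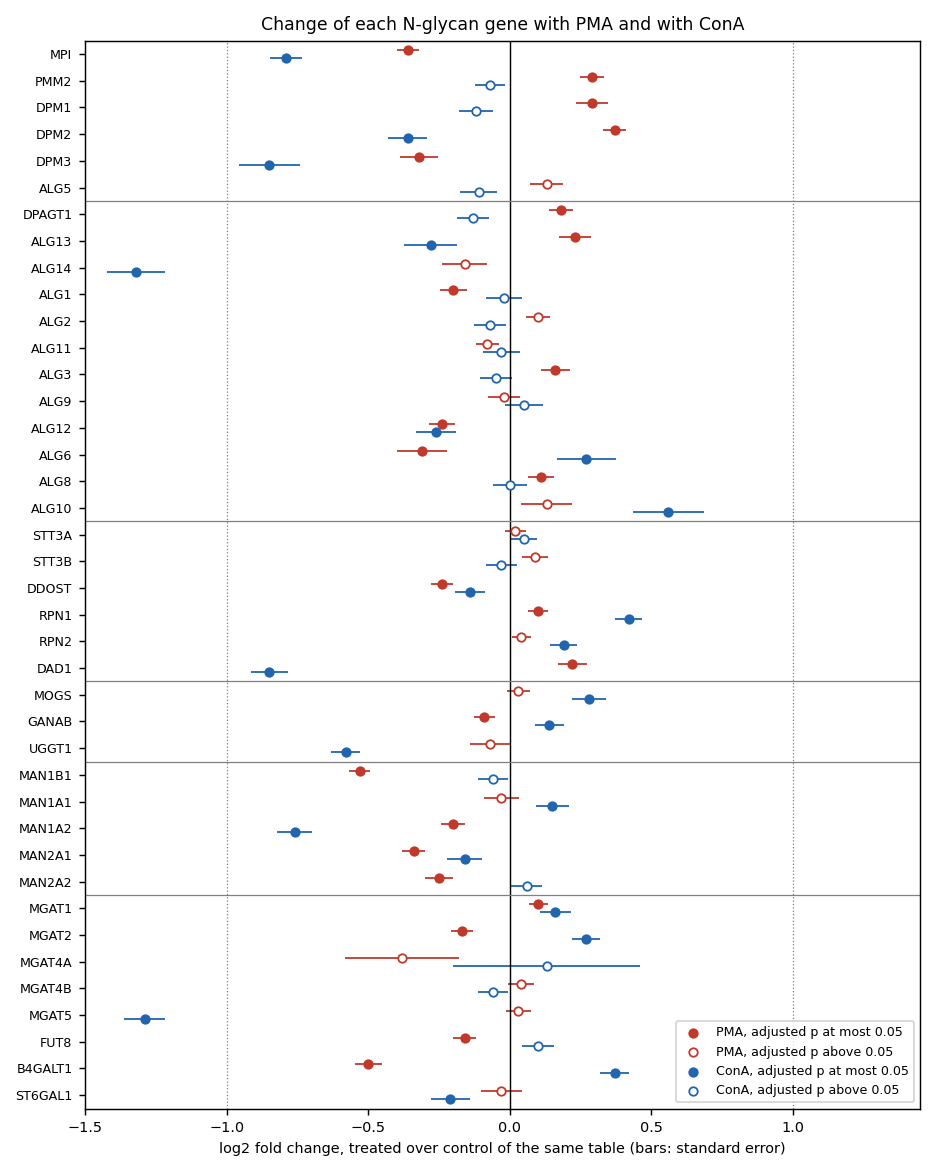
Log2 fold change (horizontal axis, treated over control of the same table) of each of the 40 genes, ordered by step from precursor supply at the top to branching and capping at the bottom, with PMA in red and ConA in blue; bars are standard errors and filled points have an adjusted p of at most 0.05. MGAT5 and ALG14 with ConA lie past -1, and every other point lies between -0.85 and 0.56.

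The promoters of the genes on which these differences turn were read from the RefSeq table of the GRCh38.p14 build, which is not the build named by the submitters, so the positions below belong to the reference and not to the count tables. A promoter, here 250 bases before to 50 bases after a start site, was found for 34 of the 40 genes, and none was found for STT3B, MAN1A2, ALG10, RPN1, MOGS and MGAT4A. Shown first are the stretches before both start sites of MGAT5 and that of ALG14, the 2 genes that fell most with ConA, each from 100 bases to 1 base before the start, read 5′ to 3′ on the strand of the gene.
MGAT5, first start, chr2:134119835-134119934, plus strand: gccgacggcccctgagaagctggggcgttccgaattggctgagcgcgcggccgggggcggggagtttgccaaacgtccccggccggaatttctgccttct
MGAT5, second start, chr2:134253972-134254071, plus strand: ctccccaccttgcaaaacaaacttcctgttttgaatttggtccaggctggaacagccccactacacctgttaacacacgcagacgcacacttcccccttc
ALG14, chr1:95072952-95073051, minus strand: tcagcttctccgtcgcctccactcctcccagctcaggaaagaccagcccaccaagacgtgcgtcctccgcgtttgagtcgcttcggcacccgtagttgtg

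Each promoter was searched on both strands for an ER stress element (ERSE, CCAAT, any 9 bases, then CCACG), the core of the unfolded protein response element (UPRE, TGACGTGG), the core of the interferon-stimulated response element (ISRE, GAAANNGAA) and the AP-1 site (TGANTCA). None of these lay in the promoters of MGAT5 or ALG14. The ERSE was found in ALG12 alone (2.94% of the 34 genes, against 0.09% of all 27305 genes searched and 5 of 18 unfolded protein response genes). The UPRE core was found in none of the 34, against 0.93% of all genes. The ISRE core was found in MGAT4B, ALG9, ALG11, DAD1 and MGAT2 (14.71%, against 9.86%), and the AP-1 site in DDOST, MGAT1 and FUT8 (8.82%, against 9.37%). The windows below hold the ERSE of ALG12, whose transcript fell with both treatments, and the ISRE cores of DAD1 and MGAT2, which moved in opposite directions with ConA. The other genes with an ISRE core, MGAT4B, ALG9 and ALG11, passed with neither treatment as deposited and are not shown. The match is in capitals and starts 134, 209 and 173 bases before the start site of ALG12, DAD1 and MGAT2.
ALG12, chr22:49918529-49918598, minus strand: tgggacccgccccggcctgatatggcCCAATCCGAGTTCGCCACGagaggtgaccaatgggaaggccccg
DAD1, chr14:22589375-22589474, minus strand: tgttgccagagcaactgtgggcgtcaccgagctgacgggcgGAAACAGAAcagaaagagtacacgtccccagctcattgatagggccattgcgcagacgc
MGAT2, chr14:49620599-49620698, plus strand: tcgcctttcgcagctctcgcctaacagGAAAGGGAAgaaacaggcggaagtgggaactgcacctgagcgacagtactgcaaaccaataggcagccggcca
A match of letters is a description of the window and not evidence of binding.

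In precursor supply the treatments differed in all 6 members and in one direction. MPI and PMM2 turn sugar phosphates into mannose-1-phosphate, DPM1, DPM2 and DPM3 form dolichol-phosphate mannose synthase, and ALG5 makes dolichol-phosphate glucose. With PMA 3 of the 6 were higher and 2 lower, beside 32.8% and 30.5% of all genes. With ConA none was higher and 3 were lower, beside 32.8% and 32.5%. The change with PMA exceeded that with ConA in all 6, by 0.24 to 0.74 on the log2 scale, beside 30.4% of all genes. The step was not tested against other genes. The call for ALG5 in this difference (0.24 ± 0.09, SE, adjusted p = 0.0266) was lost when PMA control 2 (0.23), PMA control 3 (0.20), PMA 2 (0.21), ConA control 5 (0.21), ConA 2 (0.22) or ConA 3 (0.21) was left out.

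MPI, mannose phosphate isomerase, stood at 3733, 3899 and 3899 normalized counts in the PMA controls and 3011, 2958 and 2998 with PMA. MPI in the other experiment stood at 3413, 3490 and 3398 in the controls and 2012, 1863 and 2086 with ConA. All treated libraries lay under all controls in both experiments, with log2 fold changes of -0.36 (SE 0.04, adjusted p = 7.59e-06) with PMA and -0.79 (SE 0.06, adjusted p = 3.05e-08) with ConA. Exons of FAM219B on the opposite strand cover 31.8% of the exon bases of MPI in the GENCODE annotation, and whether reads were counted by strand is not given in the sources used here, so its values are uncertain to that extent. The next enzyme, PMM2, stood at 2173, 2160 and 2068 in the PMA controls and 2576, 2564 and 2677 with PMA, a rise with no overlap (log2 0.29, SE 0.04, adjusted p = 0.000101). Its log2 value with ConA was -0.07 (SE 0.05, adjusted p = 0.281).

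The subunits of dolichol-phosphate mannose synthase did not move together with PMA, and with ConA all had negative log2 values of unlike size. DPM1, the catalytic subunit, stood at 2319, 2326 and 2076 in the PMA controls and 2591, 2873 and 2738 with PMA, where every treated library was above every control (log2 0.29, SE 0.06, adjusted p = 0.000878). With ConA, DPM1 overlapped its controls and did not pass (log2 -0.12, SE 0.06, adjusted p = 0.103), but it passed as lower in 2 of 14 alternatives, quantile normalization and median centring. DPM2, a regulatory subunit, stood at 2334, 2438 and 2441 in the controls and 3108, 3049 and 3191 with PMA, the largest rise among the 40 genes with PMA (log2 0.37, SE 0.04, adjusted p = 1e-05). In the ConA experiment DPM2 went the other way without overlap, from 2433, 2742 and 2660 to 2203, 1865 and 2029 (log2 -0.36, SE 0.07, adjusted p = 0.000362). DPM3, which holds the enzyme in the membrane, fell with both. Its values were 958, 1006 and 866 in the PMA controls and 712, 790 and 766 with PMA (log2 -0.32, SE 0.07, adjusted p = 0.00168). With ConA the values of DPM3 were 1082, 841 and 775 against 1430, 1740 and 1671 in the controls (log2 -0.85, SE 0.11, adjusted p = 8.4e-06), a wider gap with no overlap.

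The ratio of DPM2 to DPM3 within each library, which no scaling of a library can change, was 2.44, 2.42 and 2.82 in the PMA controls and 4.37, 3.86 and 4.16 with PMA. For ConA it was 1.70, 1.58 and 1.59 in the controls and 2.04, 2.22 and 2.62 with ConA. All treated libraries of both experiments had the higher ratio, with an exact two-sided permutation p of 0.1 in each, the smallest that 3 libraries against 3 can give. These gene pairs were chosen after their values had been seen.

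Lipid-linked oligosaccharide assembly showed small changes with PMA and a single large one with ConA. Of its 12 genes, 4 were higher and 3 lower with PMA (beside 32.8% and 30.5% of all genes), with log2 fold changes from -0.31 to 0.23. With ConA 2 were higher and 3 lower (beside 32.8% and 32.5%), from -1.32 to 0.56. ALG13 and ALG14 together add the second GlcNAc, ALG13 as the catalytic subunit and ALG14 as its membrane anchor. ALG14 stood at 378, 415 and 398 normalized counts in the ConA controls and 175, 143 and 159 with ConA. Every library with ConA lay far under the lowest control, and the fall was the largest of the 40 (log2 -1.32, SE 0.10, adjusted p = 7.34e-08). In the PMA experiment ALG14 stood at 290, 275 and 294 in the controls and 262, 249 and 260 with PMA, lower without overlap but short of the threshold (log2 -0.16, SE 0.08, adjusted p = 0.1). The change of ALG14 with PMA exceeded that with ConA by 1.16 (SE 0.13, adjusted p = 4.38e-07).

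ALG13 rose with PMA, from 623, 602 and 570 to 693, 707 and 708 (log2 0.23, SE 0.06, adjusted p = 0.00462), with no overlap. With ConA it was lower, at 484, 557 and 579 against 733, 635 and 600 in the controls (log2 -0.28, SE 0.09, adjusted p = 0.0165), a fall smaller than that of ALG14. The ratio of ALG13 to ALG14 within a library was 2.09 ± 0.134 (SD, n = 3) in the PMA controls and 2.73 ± 0.0996 (SD, n = 3) with PMA, and with ConA it was 3.43 ± 0.594 against 1.66 ± 0.241 in the controls (SD, n = 3; exact permutation p = 0.1 in each).

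ALG6, which adds the first glucose, passed in opposite directions as deposited, but each of its calls depended on the settings. Its normalized counts were 231, 242 and 235 in the PMA controls and 195, 197 and 177 with PMA, lower in every library (log2 -0.31, SE 0.09, adjusted p = 0.00906, and -0.16, adjusted p = 0.134 after quantile normalization). In the ConA experiment ALG6 was at 277, 270 and 229 in the controls and 284, 330 and 323 with ConA, higher in every library although ConA 1 lay close to control 4 (log2 0.27, SE 0.11, adjusted p = 0.034), and this call was lost in 6 of 14 alternatives (0.19 to 0.27 in these). The difference of -0.59 (SE 0.14, adjusted p = 0.00125) passed the test. ALG10, which adds the last glucose, stood at 186, 135 and 154 in the ConA controls and 241, 234 and 220 with ConA, the largest rise with ConA (log2 0.56, SE 0.13, adjusted p = 0.00126). Its near-identical copy ALG10B rose by 0.46 with ConA (adjusted p = 0.000984), and reads may have been divided between these copies by the counting, so neither value is certain alone. With PMA, ALG10 had a log2 fold change of 0.13 (adjusted p = 0.241).

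Among the other assembly genes, DPAGT1, which starts the tree with the first GlcNAc-phosphate, rose with PMA (log2 0.18, adjusted p = 0.00286, but 0.05, adjusted p = 0.272 after quantile normalization) and had -0.13 with ConA (adjusted p = 0.0574). C2CD2L on the opposite strand covers 19.8% of the exon bases of DPAGT1. The mannosyltransferase ALG1 fell with PMA (-0.20, adjusted p = 0.00359) and had -0.02 with ConA, with 26.5% of its exon bases covered by EEF2KMT on the opposite strand. ALG12, a lumenal mannosyltransferase and the gene with the ERSE shown above, fell with both, by 0.24 with PMA (adjusted p = 0.000929) and by 0.26 with ConA (adjusted p = 0.00557) on the log2 scale. ALG3, which adds the first lumenal mannose, rose with PMA (0.16, adjusted p = 0.0169), as did ALG8, which adds the second glucose, at the threshold itself (0.11, adjusted p = 0.05). As deposited, the mannosyltransferases ALG2, ALG9 and ALG11 passed in neither comparison, with log2 fold changes between -0.08 and 0.10. After quantile normalization ALG11 passed as lower with PMA (-0.173, adjusted p = 0.00388). In ALG11, 57.6% of the exon bases are shared with UTP14C on the same strand.

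**Figure D3:**
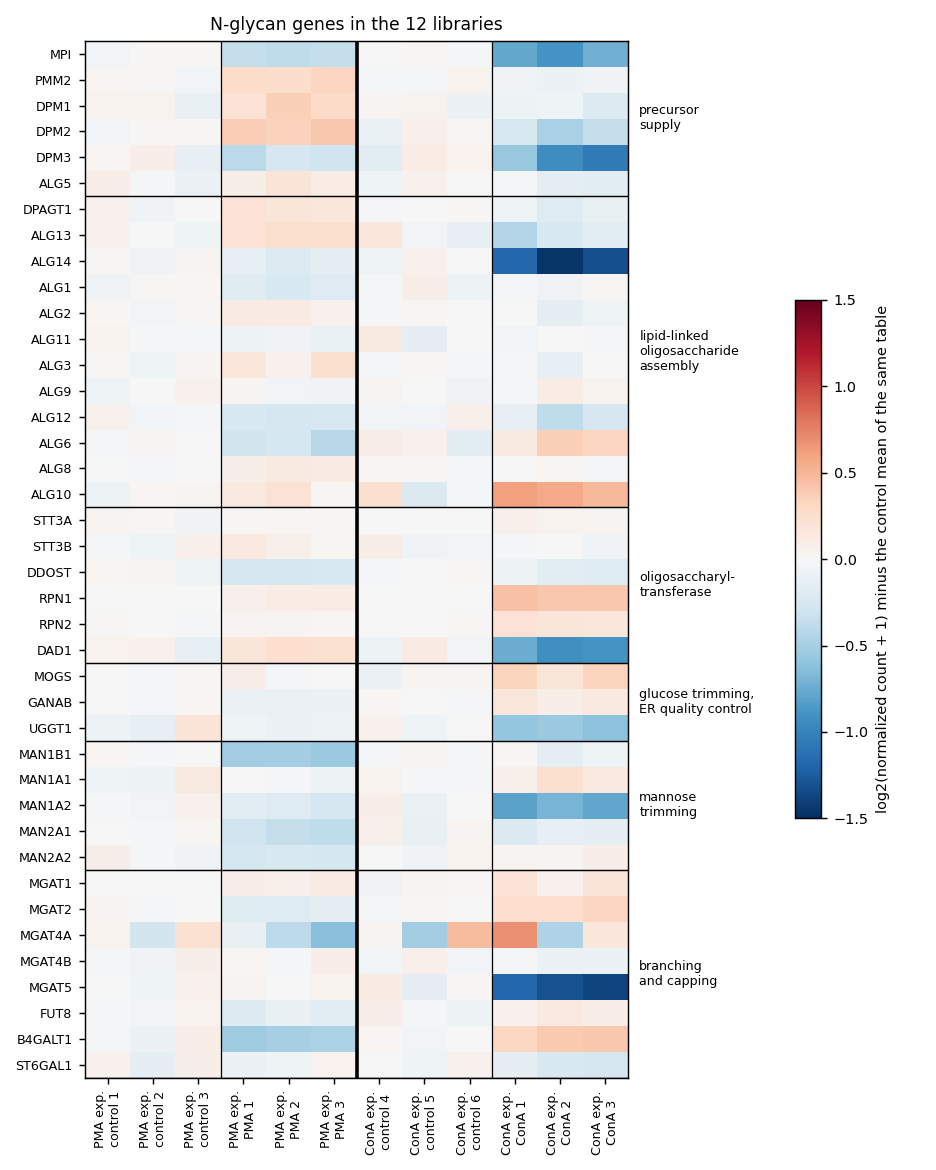
Each of the 40 genes (rows, by step) in the 12 libraries (columns), as log2(normalized count + 1) minus the mean of the controls of the same table; red is above and blue below that mean. The darkest blue cells are ALG14 and MGAT5 in the 3 ConA libraries, and MGAT4A, the gene with the lowest counts, differs most between libraries of one group.

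Among the OST genes the changes with ConA ran in both directions, with RPN1 and RPN2 higher, DAD1 and DDOST lower, and neither catalytic subunit past the test. Summed, the 6 genes took 0.179% to 0.180% of all normalized counts in the ConA controls and 0.191% to 0.197% with ConA. STT3A, the catalytic subunit of the complex that acts during translation, stood at 8974, 8848 and 8424 in the PMA controls and 8849, 8906 and 8837 with PMA, and at 8295, 8211 and 8262 in the ConA controls and 8702, 8543 and 8485 with ConA. Its log2 fold changes were 0.02 (95% interval -0.06 to 0.10, adjusted p = 0.67) and 0.05 (-0.05 to 0.16, adjusted p = 0.323), although the ConA libraries all lay above their controls and the value with PMA was -0.128 (adjusted p = 0.0155) after quantile normalization. STT3B, the catalytic subunit that also acts after translation, stood at 8331, 8058 and 8847 in the PMA controls and 9301, 8896 and 8577 with PMA, and at 9213, 8328 and 8364 in the ConA controls and 8430, 8648 and 8319 with ConA. Treated and control libraries of STT3B overlapped in both, with 0.09 (-0.01 to 0.19, adjusted p = 0.123) and -0.03 (-0.14 to 0.09, adjusted p = 0.677). Per kilobase of merged exons the controls held 1864 normalized counts of STT3A (1795 to 1912) and 1980 of STT3B (1897 to 2083) in the PMA table, ranges that overlap. In the ConA table the controls held 1759 of STT3A (1749 to 1767) and 2033 of STT3B (1961 to 2169), ranges that do not meet.

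RPN1 (ribophorin 1), a shared subunit close to the ribosome, stood at 18110, 18270 and 18210 in the ConA controls and 24580, 24170 and 24160 with ConA, a tight rise far outside the spread (log2 0.42, SE 0.05, adjusted p = 3.43e-06). RPN2 (ribophorin 2) rose by less with ConA (0.19, SE 0.05, adjusted p = 0.00272). DAD1, a small shared subunit, went the other way, from 6536, 7505 and 6733 in the ConA controls to 4128, 3667 and 3700 (log2 -0.85, SE 0.07, adjusted p = 5.08e-08), with no overlap. With PMA, DAD1 was at 6149, 6454 and 6348 against 5662, 5680 and 4997 in the controls, higher in all 3 libraries (log2 0.22, SE 0.05, adjusted p = 0.00333), but this call was lost after quantile normalization (0.064, adjusted p = 0.342). The difference of DAD1 between treatments was 1.07 (SE 0.09, adjusted p = 1.38e-08) and 0.92 after quantile normalization. The ratio of RPN1 to DAD1 was 2.77, 2.43 and 2.70 in the ConA controls and 5.96, 6.59 and 6.53 with ConA (exact permutation p = 0.1), and with PMA it was 2.72 ± 0.0307 against 2.96 ± 0.217 in the controls (SD, n = 3). DDOST fell with both (-0.24, adjusted p = 0.000216 with PMA, and -0.14, adjusted p = 0.0297 with ConA), and 20.1% of its exon bases are shared with PINK1-AS.

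DAD1 and DPM3 are the 2 shortest of the 40 genes, with 731 and 622 merged exon bases, and short genes as a class were lower with ConA. Of all 347 protein-coding genes tested with under 1000 exon bases, 62.2% were lower and 15.0% higher with ConA, with a median log2 fold change of -0.42, and the 1895 genes of at least 1000 and under 2000 bases had a median of -0.16. Among genes of 8000 bases or more the median was 0.11, whereas the 6 N-glycan genes of that length had a median of -0.67. Of these, MGAT5, ALG14, MAN1A2 and UGGT1 were lower, MGAT1 (0.16) was higher, and MGAT4A (0.13) did not pass. With PMA the medians by length ran from -0.04 for genes under 1000 bases to 0.08 for those of 8000 or more. The part of gene length in the falls of DAD1 and DPM3 was not tested.

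In glucose trimming and ER quality control, with ConA, MOGS and GANAB, which remove glucose, were higher and UGGT1, which puts it back, was lower. MOGS (glucosidase I) stood at 6205, 6769 and 6767 in the ConA controls and 8284, 7444 and 8275 with ConA, above all controls (log2 0.28, SE 0.06, adjusted p = 0.000759). GANAB, the catalytic subunit of glucosidase II, rose by 0.14 with ConA (adjusted p = 0.0289) and fell by 0.09 with PMA (adjusted p = 0.0479). The calls of GANAB were lost in 5 of 14 alternatives with ConA and in 9 of 15 with PMA. UGGT1, which re-glucosylates unfolded glycoproteins, stood at 10700, 9782 and 10300 in the ConA controls and 6883, 6977 and 6718 with ConA, well under every control (log2 -0.58, SE 0.05, adjusted p = 2.59e-07). With PMA, UGGT1 lay at 9241, 9121 and 9176 within the range of its controls (9160, 8890 and 11080), of which control 3 was high. The ratio of GANAB to UGGT1 rose from 3.16 ± 0.113 (SD, n = 3) to 5.21 ± 0.197 (SD, n = 3) with ConA (exact permutation p = 0.1) and was 2.94 ± 0.296 and 2.90 ± 0.00934 (SD, n = 3) in the PMA experiment (exact permutation p = 1).

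**Figure D4:**
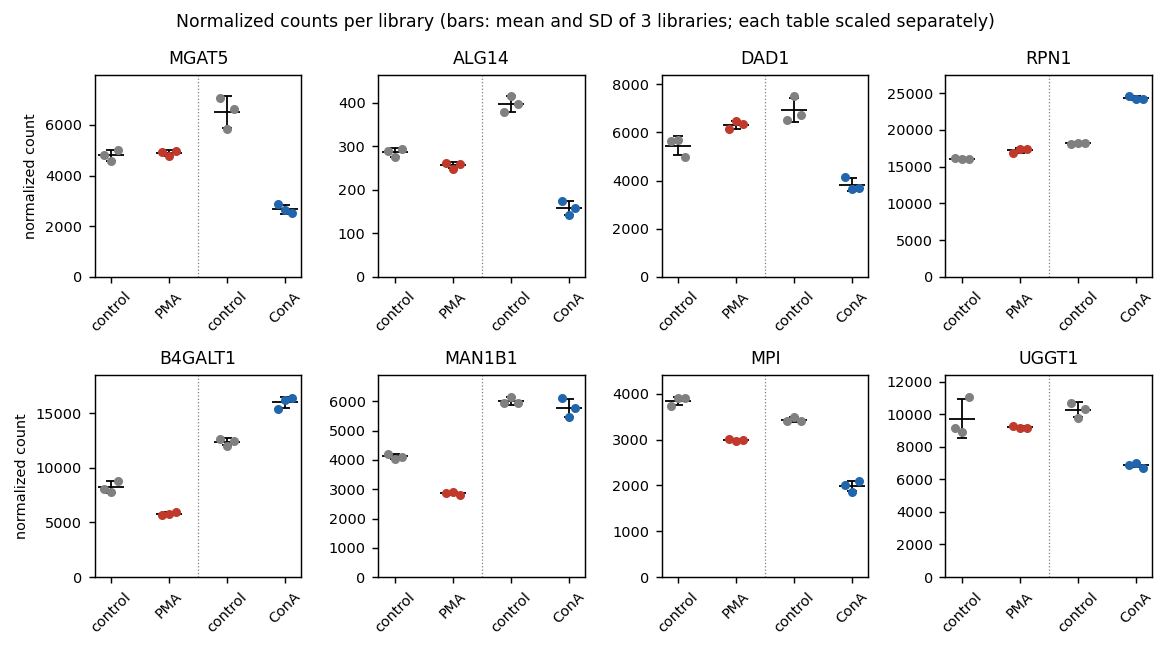
Normalized counts (vertical axes, from 0) of 8 genes in every library of the 4 groups; points are libraries and bars the mean and SD of 3. MGAT5, ALG14, DAD1, UGGT1 and MPI lie lower with ConA, RPN1 and B4GALT1 higher with ConA, and MAN1B1, B4GALT1 and MPI lower with PMA, without overlap in each case. By smaller steps, ALG14 lies lower and DAD1 and RPN1 higher with PMA, also without overlap.

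In mannose trimming 4 of 5 genes were lower with PMA and none higher, beside 30.5% and 32.8% of all genes, and the step was not tested against other genes. MAN1B1, the ER mannosidase that takes the first mannose and takes part in the disposal of misfolded glycoproteins, stood at 4197, 4047 and 4117 in the controls and 2865, 2892 and 2811 with PMA, the largest fall of the 40 with PMA (log2 -0.53, SE 0.04, adjusted p = 2.62e-07) and one with a wide gap between groups. With ConA it stood at 6103, 5471 and 5771 against 5940, 6167 and 5941, which overlap (log2 -0.06, adjusted p = 0.359). The difference of MAN1B1 between treatments was -0.47 (SE 0.06, adjusted p = 6.25e-06). MAN2A1, Golgi mannosidase II, stood at 3076, 3002 and 3151 in the PMA controls and 2510, 2397 and 2365 with PMA, again without overlap (log2 -0.34, SE 0.04, adjusted p = 2.51e-05), and fell by 0.16 with ConA (adjusted p = 0.0295). Its relative MAN2A2 fell by 0.25 with PMA (adjusted p = 0.000736) and had 0.06 with ConA (adjusted p = 0.332). Per kilobase the PMA controls held 659 normalized counts of MAN2A1 (643 to 675) and 286 of MAN2A2 (276 to 303), ranges that do not meet.

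The Golgi mannosidases IA and IB, which trim the same linkage, parted with ConA. MAN1A2 (IB) fell from 4028, 3509 and 3744 to 2156, 2323 and 2186 (log2 -0.76, SE 0.06, adjusted p = 1.01e-07), while MAN1A1 (IA) rose by 0.15 (SE 0.06, adjusted p = 0.0335). The call of MAN1A1 was lost in 7 of 14 alternatives, quantile normalization and median centring among them (0.09 to 0.19 over all 14). In the ConA controls the ratio of MAN1A1 to MAN1A2 was 0.657, 0.710 and 0.671, and with ConA it was 1.24, 1.29 and 1.29 (exact permutation p = 0.1). With PMA the ratio went from 0.503 ± 0.0244 (SD, n = 3) to 0.564 ± 0.00432 (SD, n = 3), MAN1A2 fell by 0.20 (adjusted p = 0.00168), and MAN1A1 had -0.03 (adjusted p = 0.644).

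Branching and capping held the largest differences between the treatments in both directions. MGAT1 and MGAT2 start the first and second branches, MGAT4A and MGAT4B and then MGAT5 add further ones, FUT8 puts fucose on the core, B4GALT1 adds galactose and ST6GAL1 adds sialic acid. MGAT5 stood at 7078, 5845 and 6618 in the ConA controls and 2863, 2633 and 2501 with ConA, so that the highest treated library lay far under the lowest control (log2 -1.29, SE 0.07, adjusted p = 1.98e-09). With PMA, MGAT5 was at 4942, 4762 and 4976 against 4820, 4573 and 5003, which overlap (log2 0.03, 95% interval -0.07 to 0.12, adjusted p = 0.576). The difference of 1.32 (SE 0.09, adjusted p = 1.3e-09) was the largest of the 40.

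B4GALT1 fell with PMA, from 8078, 7740 and 8821 to 5679, 5814 and 5924 (log2 -0.50, SE 0.05, adjusted p = 4.1e-06), and rose with ConA, from 12650, 12010 and 12440 to 15380, 16200 and 16380 (log2 0.37, SE 0.05, adjusted p = 1.83e-05). Neither experiment showed overlap, and the difference of -0.87 (SE 0.07, adjusted p = 8.93e-09) was the largest in that direction. MGAT2 moved likewise, with -0.17 with PMA (SE 0.04, adjusted p = 0.00252). With ConA, MGAT2 went from 3941, 4078 and 4024 to 4768, 4761 and 5021 (log2 0.27, SE 0.05, adjusted p = 0.00028), all treated libraries above all controls.

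The balance of the branching genes can be read within each library. The ratio of MGAT2 to MGAT5 was 0.557, 0.698 and 0.608 in the ConA controls and 1.67, 1.81 and 2.01 with ConA, and that of B4GALT1 to MGAT5 went from 1.91 ± 0.136 (SD, n = 3) to 6.03 ± 0.600 (SD, n = 3), both with an exact permutation p of 0.1. With PMA both ratios moved down, from 0.628 ± 0.0266 to 0.546 ± 0.00662 (SD, n = 3) for MGAT2 to MGAT5 and from 1.71 ± 0.0464 to 1.19 ± 0.0359 (SD, n = 3) for B4GALT1 to MGAT5 (exact permutation p = 0.1 in each). Ratios of STT3A to STT3B, for comparison, were 1.04 ± 0.0789 and 0.994 ± 0.0399 (SD, n = 3) without and with PMA (exact permutation p = 0.4) and 0.900, 0.986 and 0.988 without and 1.03, 0.988 and 1.02 with ConA (exact permutation p = 0.2).

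**Figure D5:**
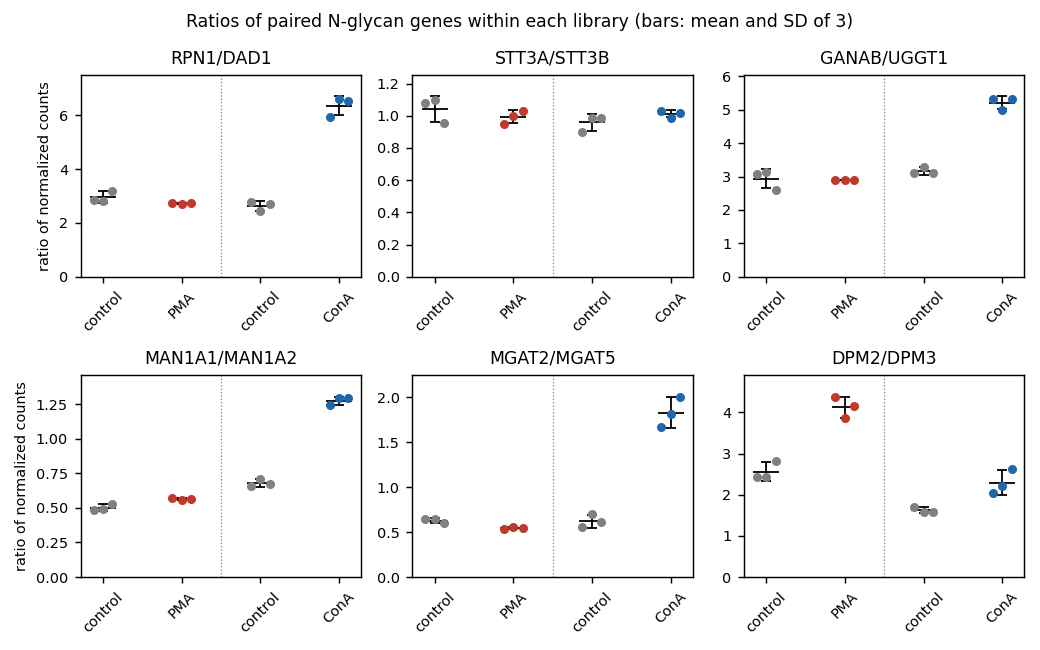
Ratio of the normalized counts of paired N-glycan genes within each library (vertical axes, from 0) for the 4 groups, with points for libraries and bars for the mean and SD of 3. With ConA the ratios RPN1/DAD1, GANAB/UGGT1, MAN1A1/MAN1A2 and MGAT2/MGAT5 lie above all controls, DPM2/DPM3 lies above its controls in both experiments, and STT3A/STT3B stays near 1.

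The remaining enzymes of this step moved less. MGAT1 rose with both, by 0.10 with PMA (adjusted p = 0.0283) and 0.16 with ConA (adjusted p = 0.0218). FUT8 fell by 0.16 with PMA (adjusted p = 0.00699) and had 0.10 with ConA (adjusted p = 0.127), with 15.1% of its exon bases covered by FUT8-AS1 on the opposite strand. ST6GAL1 fell by 0.21 with ConA (adjusted p = 0.0187) and had -0.03 with PMA (adjusted p = 0.718). The GlcNAc-transferases IVa and IVb differed in level, with 2323 normalized counts per kilobase of MGAT4B (2231 to 2464) and 6.40 of MGAT4A (5.20 to 7.43) in the PMA controls. MGAT4B had log2 fold changes of 0.04 and -0.06 with PMA and ConA, neither past the test. MGAT4A, at 18.0 to 67.7 normalized counts in any library, had -0.38 with PMA (95% interval -0.82 to 0.07) and 0.13 with ConA (-0.57 to 0.84), intervals too wide at this depth to detect a change of the size seen in most members.

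Some of the calls above rested on single libraries. With 1 library left out in turn, 6 to 11 members were higher with PMA, the lowest count arising without PMA control 2 or PMA 3, and 6 to 10 were higher with ConA, the lowest arising without ConA 3. Of all genes tested in the same fits, 4552 to 5099 were higher with PMA and 4447 to 4906 with ConA. With PMA, the call of ALG8 was lost without any 1 of the 6 libraries (0.10 to 0.13), that of GANAB without any 1 except control 2 (-0.09 to -0.08), and that of MGAT1 without any 1 except control 3 (0.09 to 0.11). ALG3 lost its call without control 2 (0.13), PMA 1 (0.15) or PMA 3 (0.12), and RPN1 without control 1, control 2, PMA 2 or PMA 3 (0.09 to 0.11). ALG2 passed without control 3 (0.11), ALG5 without control 1 (0.18) and STT3B without control 3 (0.12). With ConA, ALG6 lost its call without control 6 (0.19), ConA 2 (0.23) or ConA 3 (0.25), and ALG13 without control 4 (-0.20) or ConA 1 (-0.20). DDOST (-0.13 to -0.11) and MAN1A1 (0.11 to 0.16) lost theirs without control 5, control 6, ConA 2 or ConA 3. GANAB (0.12 to 0.14) did so without control 5, control 6, ConA 1 or ConA 3. MGAT1 (0.13 to 0.14) did so without control 4, ConA 1 or ConA 3, MAN2A1 (-0.17 to -0.12) without control 4, control 6, ConA 1 or ConA 3, and ST6GAL1 (-0.20 to -0.18) without control 6, ConA 2 or ConA 3. DPAGT1 passed without ConA 1 (-0.16) and FUT8 without control 4 (0.15).

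In all alternatives tried, settings and left-out libraries included, 16 of the 24 calls with PMA, 15 of the 23 with ConA and 21 of the 28 in the difference were made each time. Those with PMA were MPI, PMM2, DPM1, DPM2, DPM3, ALG13, ALG1, ALG12, DDOST, MAN1B1, MAN1A2, MAN2A1, MAN2A2, MGAT2, FUT8 and B4GALT1. Those with ConA were MPI, DPM2, DPM3, ALG14, ALG12, ALG10, RPN1, RPN2, DAD1, MOGS, UGGT1, MAN1A2, MGAT2, MGAT5 and B4GALT1.

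Further genes of the pathway were taken from a list of 56 written from general knowledge, of which 55 were tested. With PMA 21 were higher and 18 lower (70.9% called, against 63.3% of all genes and 24 of the 40), with a median log2 fold change of 0.03, and with ConA 19 were higher and 18 lower (67.3%, against 65.3% and 23 of the 40), with a median of -0.04. By size, the GlcNAc-transferase family member MGAT4C rose most with both, from 12.1 ± 3.76 to 141 ± 4.12 normalized counts (SD, n = 3) with PMA (log2 3.48, adjusted p = 1.16e-07) and from 9.20 ± 4.90 to 44.6 ± 2.36 (SD, n = 3) with ConA (2.27, adjusted p = 4.4e-05). ST3GAL6, a sialyltransferase, was next with PMA (1.57), and the galactosyltransferase B4GALT5 with ConA (0.92, from 9823 ± 362 to 18540 ± 93.0, SD, n = 3). The sialyltransferase ST6GAL2 fell most with both (-3.09 with PMA and -1.75 with ConA), followed by MGAT3 with PMA (-1.63) and by TSTA3, which makes GDP-fucose, with ConA (-0.93). The movements named here with PMA were larger than those of any of the 40 genes with PMA, whose largest absolute log2 fold change was 0.53. With ConA, ALG14 (-1.32) and MGAT5 (-1.29) of the 40 moved further than B4GALT5 and TSTA3.

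Neighbouring pathways gave other counts on the deposited scale. Of all genes tested, 32.8% were higher and 30.5% lower with PMA, and 32.8% were higher and 32.5% lower with ConA. The lists were not tested against these shares. Of 21 O-glycan genes tested, 5 were higher and 12 lower with PMA (median -0.23) and 8 higher and 10 lower with ConA (median -0.04), with the largest rises for ST3GAL1 (2.54) and GALNT18 (1.40) and the largest falls for GALNT15 (-5.43) and GALNT13 (-1.59) with PMA. GALNT13 was low, at 21.8 ± 8.11 normalized counts in the PMA controls and 6.69 ± 2.97 with PMA (SD, n = 3). With ConA the O-glycan genes with the largest changes were GALNT18 (1.24), ST3GAL2 (0.75), GALNT15 (-3.32) and GALNT11 (-0.79). Of 18 unfolded protein response genes, 15 were higher and 2 lower with PMA (median 0.20), with DDIT3 (0.73) and DNAJC3 (0.49) rising most and CRELD2 (-0.26) and SEL1L (-0.11) falling. With ConA 8 were higher and 6 lower (median 0.08), led by PDIA4 (0.64) and DNAJB11 (0.52) upwards and by HERPUD1 (-0.84) and ATF4 (-0.81) downwards.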

How the data were processed

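Signal values were used as deposited by the authors: normalized counts per gene symbol from polyA RNA, with 1 column per library and each table normalized separately. The submitters' processing notes list Partek, Bowtie2, STAR and DESeq2 and the builds hg19 and mm10, with no role or order, and the strand setting is not given in the sources used here. Low values of a library are near multiples of 1 step, which gave the estimated reads (33648999 to 45588060 per library), but only 80.0% to 82.3% of values between 5 and 60 came within 0.02 of a whole number, so reads were not recovered and tests for counts were not run. The spread between the 3 libraries of a group limits the precision.

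Genes averaging at least 10 normalized counts were compared with limma 3.58.1 (R 4.3.3, variance trend) on log2(value + 1) within each table, with Benjamini-Hochberg adjustment over all genes tested. The difference between the responses to PMA and ConA came from 1 fit of all 12 libraries. A gene was called at an adjusted p of at most 0.05. Simulated data served as a first trial of the test. Exact permutation tests were two-sided.

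All 40 genes are named by step. Values in every library are given for the 5 largest rises and falls per treatment among those called, the 3 largest differences in each direction, STT3A and STT3B. For the other lists, the 2 largest changes in each direction are named. The 40 genes and all lists were chosen with earlier results of these data known. One marker gene is not reported here. Exon lengths and overlaps came from the GENCODE annotation of GRCh38 and promoters from RefSeq (GRCh38.p14). PMA libraries that share a number did not deviate together (correlations -0.064, 0.096 and 0.096), so the numbers were not taken as pairs. Alternatives were the pseudocount (0.1, 10), the filter (none, 50), quantile normalization, median centring, no variance trend, a replicate block, 1 fit of all libraries, and each library left out. Python 3.11.15, numpy 2.4.6, pandas 2.3.3, scipy 1.17.1 and matplotlib 3.10.9 were used.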

Additional observations from a re-analysis of the deposited data

Results flagged for a closer look

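For 3 of the 40 genes the change differed between the treatments by at least 1 on the log2 scale, in the limma test of the response to PMA less that to ConA: MGAT5 (1.32, adjusted p = 1.3e-09), ALG14 (1.16, adjusted p = 4.38e-07) and DAD1 (1.07, adjusted p = 1.38e-08). In each, all 3 libraries with ConA lay under all of their controls. With PMA, MGAT5 overlapped its controls, ALG14 lay slightly under them and DAD1 above them. After quantile normalization the difference of DAD1 was 0.92 and that of B4GALT1 was -1.049, so which genes lie past 1 depends on the scaling. The treatments belong to separate experiments with separate controls, and a difference of treatment cannot be told apart from one of experiment.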

How the results depend on the processing

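Of 1958 values of single genes under the alternatives, 1766 kept direction and side of the threshold, 126 fell short of it, 26 newly passed it and 40 changed sign, 34 of these past the threshold in neither fit. The cause was not tested. Quantile normalization left 5 members higher with PMA, with a median of -0.115, beside 4403 of all 15153 genes and a median of -0.013 for all genes. Median centring left 6 members higher with ConA, with a median of -0.116, beside 4330 of all 15139 genes and a median of -0.065 for all genes. Without a variance trend 1 member lay past a log2 fold change of 1 with ConA. With 1 library left out, the median with PMA ran from -0.047 to 0.019 (0.019 without control 3), and 6 to 11 members were higher with PMA and 6 to 10 with ConA.

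Signs changed with PMA under quantile normalization for MGAT1 (-0.065), MGAT4B (-0.104), MGAT5 (-0.118), MOGS (-0.101), RPN1 (-0.136), RPN2 (-0.098), STT3A (-0.128) and STT3B (-0.063), of which MGAT5, MOGS, RPN1, RPN2 and STT3A passed the test as lower there. With ConA they did for ALG9 (-0.037 under quantile normalization and -0.014 under median centring) and STT3A (-0.008 under median centring). In the difference they did under quantile normalization for ALG12 (-0.009), ALG9 (0.005), MGAT4B (-0.057) and STT3B (-0.061), and under median centring for ALG11 (0.002) and STT3A (0.014). With 1 library left out, values crossed 0 with PMA for ST6GAL1 (-0.107 to 0.009), MGAT5 (-0.005 to 0.059), ALG9 (-0.049 to 0.013), MAN1A1 (-0.073 to 0.035), STT3A (-0.008 to 0.038), UGGT1 (-0.134 to 0.025) and MOGS (-0.002 to 0.055). With ConA they did for ALG11 (-0.094 to 0.038), ALG8 (-0.019 to 0.012), STT3B (-0.052 to 0.02), ALG1 (-0.051 to 0.034) and MGAT4A (-0.147 to 0.429), and in the difference for ALG12 (-0.05 to 0.079) and ALG11 (-0.114 to 0.018). Without a change of sign, ALG11 (-0.173, adjusted p = 0.00388), UGGT1 (-0.225, adjusted p = 0.0102) and ALG10 (0.274, adjusted p = 0.019) newly passed with PMA after quantile normalization.

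With the replicate number as a block, 9 members were higher and 13 lower with PMA, and 15 higher and 11 lower in the difference. Of all genes, 4950 were higher and 4595 lower of 15153 with PMA, and 4528 and 4557 of 15030 in the difference. The block could not be used for ConA, whose controls carry other numbers. In the difference, the calls lost with 1 library left out were those of ALG1, ALG2, ALG3, ALG5, ALG10 and MAN2A1.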

Other observations

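The genes below lie outside the 40 and were picked from the list of further pathway genes after their values had been seen. With PMA the 4 genes that turn fructose-6-phosphate into UDP-GlcNAc, the donor of the first sugars and of every branch, were all higher: GFPT1 by 0.49, GNPNAT1 by 0.54, PGM3 by 0.72 and UAP1 by 0.99 on the log2 scale (limma adjusted p from 1.76e-09 to 6.07e-06). With ConA, PGM3 was higher (0.20, adjusted p = 0.0117), UAP1 lower (-0.16, adjusted p = 0.0156), and GFPT1 (-0.07) and GNPNAT1 (-0.04) did not pass. SRD5A3, which makes dolichol, rose by 1.28 with PMA and fell by 0.34 with ConA.

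Further small subunits of the OST were lower with ConA, as DAD1 was: TMEM258 by 0.64, OST4 by 0.59 and OSTC by 0.51 on the log2 scale. KRTCAP2 had -0.16 and did not pass. Short genes as a class were lower with ConA, as described above, and the part of gene length in the falls of these subunits was not tested. MAGT1, which belongs to the STT3B complex, fell by 0.16 with both treatments, and TUSC3 rose by 0.22 with PMA. The glycan-binding chaperones of the folding cycle were higher with ConA (CALR 0.81 and CANX 0.35), while UGGT2 (-0.31), EDEM1 (-0.43) and EDEM3 (-0.31) were lower.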
